A study of Mus musculus with 18 samples.

Results

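The 36 genes described here encode aminoacyl-tRNA synthetases, the enzymes that join each amino acid to its transfer RNA. They were taken by name from the 24035 genes counted in the study: 20 encode enzymes of the cytosol, and 16, whose symbols end in 2, encode enzymes of the mitochondrion. Ribosome profiling, a readout of where ribosomes sit from the short mRNA pieces they protect during nuclease digestion (ribosome-protected fragments, RPF), and mRNA sequencing were done on NIH3T3, an established line of mouse fibroblasts, grown in medium with 10% fetal bovine serum. There were 3 kinds of cells. WT cells received vehicle. Cells labelled C1483Y, by their labels NIH3T3 with an edited Mtor gene (G4448A in the coding sequence), received vehicle. WT cells labelled Torin1 were given 200 nM of Torin1, which blocks the ATP site of mTOR, for 3 h. Each kind of cells had 3 RPF and 3 mRNA libraries. The labels do not say that replicates came from separate cultures or that C1483Y cells were more than a single edited line, so p-values speak of the variation among these libraries only, and that variation may be technical.

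A synthetase recognises its amino acid and the matching tRNAs, and spends ATP to form the ester bond that the ribosome later uses. In animals the cytosol and the mitochondrion hold largely separate sets, all encoded in the nucleus, and the mitochondrial enzymes serve the small number of respiratory chain proteins made inside the organelle. Gars and Kars are exceptions, since each gene gives rise to both a cytosolic and a mitochondrial form. In the cytosol, the enzymes encoded by Dars, Eprs, Iars, Kars, Lars, Mars, Qars and Rars are held together in the multisynthetase complex by the scaffold proteins Aimp1, Aimp2 and Eef1e1. The mTOR kinase, as part of mTORC1, promotes translation of mRNAs that begin with a 5′ terminal oligopyrimidine (TOP) tract, such as those of ribosomal proteins, and raises Atf4, a transcription factor that activates many cytosolic synthetase genes. The charging of tRNAs itself was not measured.

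Because Atf4 and its C/EBP partners act on DNA and TOP control acts on the first bases of the mRNA, the stretches of promoter that bear on either route are shown first. RefSeq windows (GRCm38.p6) from 250 bases before to 50 bases after the start were at hand for 26 of the 36 genes, 12 cytosolic and 14 mitochondrial. No window was used for Cars, Hars, Lars, Mars, Nars, Rars, Vars, Wars, Hars2 and Pars2. The composite Atf4 and C/EBP motif TGATGNAA, searched on both strands with N as any base, was present in 5 of the 12 cytosolic windows (41.7%) and in 0 of the 14 mitochondrial windows. It was present in 4.51% of the windows of 27025 genes, and in 10 of 29 windows of other amino acid response genes. The windows that hold it are shown in part, on the strand of the gene, with the motif in capitals. In Yars it reads as spelled, and in Gars, Aars, Iars and Tars it lies on the opposite strand.
Yars: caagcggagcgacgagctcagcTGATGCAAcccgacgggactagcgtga
Gars: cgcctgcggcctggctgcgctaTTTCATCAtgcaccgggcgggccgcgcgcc
Aars, first match: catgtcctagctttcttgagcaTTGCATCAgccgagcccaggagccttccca
Aars, second match: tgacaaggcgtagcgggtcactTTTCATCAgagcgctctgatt
Iars: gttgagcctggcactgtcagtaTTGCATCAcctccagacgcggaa
Tars: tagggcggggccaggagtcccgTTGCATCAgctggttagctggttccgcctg
These stretches lie at chr4:129189884-129189932 (plus strand) for Yars, chr6:55037949-55038000 (plus) for Gars, chr8:111033708-111033759 and chr8:111033829-111033871 (plus) for Aars, chr13:49682115-49682159 (plus) for Iars and chr15:11399644-11399695 (minus) for Tars. In Gars the first base of the motif is 30 bases before the start, in Tars 15 bases before it, and in Aars 112 bases before it at the first match. In Yars, Iars and the second match of Aars it lies just after the start used for the window. The RefSeq spans of Aars and Yars begin further upstream, at chr8:111027778 and chr4:129189734. Both matches of Aars and the match of Yars thus lie inside the annotated gene.

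The start of the transcript was then read for a TOP-like run, defined as a C followed by at least 4 further pyrimidines. It was found in 0 of 12 cytosolic windows, in 1 of 14 mitochondrial windows (Wars2), in 13 of 57 windows of ribosomal protein genes (22.8%) and in 3.01% of all windows. RefSeq starts are 1 position per gene and can miss the start used in these cells. The span of Wars2 begins upstream of the start used here, at chr3:99140107. Farsb, Qars, Gars and Yars are among the 8 genes whose Torin1 libraries all lay below WT in RPF. Farsa and Iars, also among them, had a window too, but their starts are not shown here. The starts of Farsb, Qars, Gars and Yars, of Wars2 and of 3 ribosomal protein genes are shown with the first 15 transcribed bases in capitals.
Rps6: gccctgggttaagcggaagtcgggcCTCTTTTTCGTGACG
Rps18: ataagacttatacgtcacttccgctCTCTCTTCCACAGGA
Rpl15: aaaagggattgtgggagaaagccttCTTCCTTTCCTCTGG
Wars2: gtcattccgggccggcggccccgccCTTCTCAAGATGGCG
Farsb: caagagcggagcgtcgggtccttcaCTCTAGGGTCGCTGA
Qars: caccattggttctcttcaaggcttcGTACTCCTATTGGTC
Gars: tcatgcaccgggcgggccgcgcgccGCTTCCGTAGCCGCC
Yars: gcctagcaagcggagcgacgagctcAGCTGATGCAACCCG
They lie at chr4:86857353-86857392 (minus) for Rps6, chr17:33955651-33955690 (minus) for Rps18, chr14:18270972-18271011 (minus) for Rpl15, chr3:99141065-99141104 (plus) for Wars2, chr1:78488883-78488922 (minus) for Farsb, chr9:108507980-108508019 (plus) for Qars, chr6:55037976-55038015 (plus) for Gars and chr4:129189878-129189917 (plus) for Yars. The 3 ribosomal protein transcripts shown are among the 13 of 57 with a TOP-like run, and they open with 9 to 13 pyrimidines. Farsb opens with C but its run ends after 4 bases, while Qars, Gars and Yars open with a purine. These matches describe letters in a window and were not tested as sites of binding or control.

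Gene counts came to 4.68 to 42.82 M reads in RPF libraries and 4.42 to 94.3 M reads in mRNA libraries, and reads placed at more than 1 site, which did not enter gene counts, made up 22.2% to 47.5% and 49.3% to 95.9% of all reads in the files. Replicates of mRNA agreed poorly, with a median biological coefficient of variation of 2.19 against 0.9 in RPF. The mRNA libraries C1483Y replicate 2 and Torin1 replicate 3 were near copies of each other (correlation of log2 CPM 0.999, against 0.411 for the next closest pair), though they differed by more than counting noise (chi-square per degree of freedom 8.66, against at least 441 for other pairs). Whether they share a source was not tested, and results from mRNA that move without them are given both ways. The 12 fibroblast markers summed to 23419 to 34061 ppm of gene reads in WT RPF libraries and 16462 to 27848 in Torin1, but to 1944 to 3395 in the RPF libraries labelled C1483Y. There, 6 epithelial markers summed to 17.7 to 125 ppm against 0 in WT (Krt19 at 0 throughout), 4 muscle markers to 75.0 to 128 against 0 to 0.301 (Myod1 and Myog at 0 in all), and 7 neuron and glia markers to 1201 to 1573 against 16.6 to 23.0 (Snap25 at 0 in C1483Y, Kif1a and Gfap at 0 in WT, Sox10 at 0 in both), while 4 adipocyte markers summed to at most 0.641 ppm against 35.3 to 87.2 (Adipoq and Plin1 at 0 in both, Fabp4 in C1483Y). Cdkn2a had 467 to 1447 reads in these 3 libraries and 0 to 4 in WT. No fibroblast marker was at 0 in all RPF libraries of a group, and in bulk RNA fewer cells of a type and less RNA per cell cannot be told apart. The 3 C1483Y mRNA libraries were unlike each other: fibroblast markers summed to between 940 and 19452 ppm, and Col1a1 had 58, 55341 and 72 reads. Whether the libraries labelled C1483Y come from the same line as WT was not tested, so a difference from WT cannot be told apart from a difference between lines. Results that rest on them are given for the libraries labelled C1483Y.

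All 36 genes had RPF reads in WT cells. Of the 20 cytosolic genes, 18 had over 100 reads in each of the 9 RPF libraries and the 3 WT values of 19 lay within a factor of 2 of each other. The 16 mitochondrial genes had fewer reads and a wider spread: their WT values had a median coefficient of variation of 37.6%, against 15.8% for the cytosolic genes. In CPM, counts scaled to library size with TMM factors, the 20 cytosolic genes together took 4999, 5461 and 4908 CPM of the RPF reads in WT replicates 1, 2 and 3, and the 16 mitochondrial genes took 335, 376 and 467 CPM. Reads on cytosolic genes thus outnumbered those on mitochondrial genes by 14.9, 14.5 and 10.5 to 1. Coding lengths were not used here, so these sums do not rank one enzyme's level against another's.

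Under Torin1, 0 of the 36 genes passed an adjusted p of 0.05 in RPF (edgeR quasi-likelihood test, Benjamini-Hochberg adjustment over 11085 genes), where 0.749% of all genes tested were called (0.74% lower and 0.00902% higher). The cytosolic genes mostly lay below WT: 18 of 20 had a log2 change under 0, with a median of -0.41 and a range from -1.06 to 0.39, beside 47.4% of all genes below 0 and a median of 0.03. The mitochondrial genes were split, with 10 of 16 below 0 and a median of -0.15. Unadjusted p was under 0.05 for 3 cytosolic genes, all below WT, and for 0 mitochondrial genes, against 4.15% of all genes (3.32% below and 0.83% above WT). The standard errors differ as well, from 0.24 to 0.86 for cytosolic and from 0.54 to 1.97 for mitochondrial genes, so a change the size of the cytosolic median is smaller than the standard error of each mitochondrial gene. The difference between the cytosolic and the mitochondrial set was not tested.

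**Figure D1:**
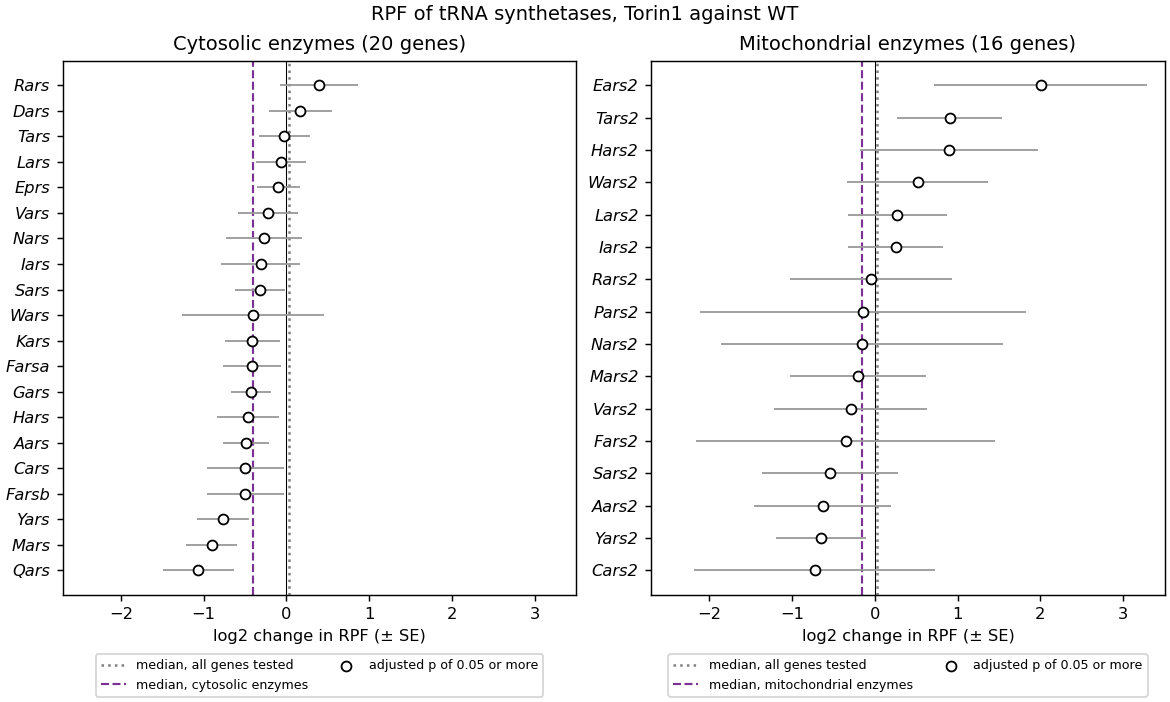
Log2 change in RPF under Torin1 against WT for each of the 20 cytosolic and 16 mitochondrial synthetase genes (points, with SE bars), n = 3 libraries a group, with dashed lines at the median of each set and a dotted line at the median of all genes tested. Of the cytosolic points 18 lie below 0, from -1.06 for Qars, while the mitochondrial points spread from -0.73 to 2.00 with wider bars.

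Methionyl-tRNA synthetase, encoded by Mars (chromosome 10, 127296221 to 127311786, GRCm38.p6), charges both initiator and elongator tRNAs. Its RPF level was 142, 230 and 157 CPM in WT and 96.4, 82.4 and 104 CPM under Torin1. All Torin1 libraries lay below all WT libraries, a log2 change of -0.90 ± 0.31 (SE; unadjusted p = 0.0136, adjusted p = 0.669, edgeR). Tyrosyl-tRNA synthetase, encoded by Yars (chromosome 4, 129189734 to 129219240), stood at 177, 183 and 215 CPM in WT and at 141, 104 and 92.6 CPM under Torin1. The groups again did not overlap, and the log2 change was -0.77 ± 0.31 (unadjusted p = 0.0307, adjusted p = 0.999, edgeR). Mars overlaps the stress response gene Ddit3 in the annotation, and the sources used here do not state whether counting used the strand.

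Glutaminyl-tRNA synthetase, encoded by Qars (chromosome 9, 108508005 to 108515941), had the lowest value of the set. Its RPF level was 109, 131 and 163 CPM in WT and 60.3, 68.9 and 63.6 CPM under Torin1, so the lowest WT library was well above the highest treated one. The log2 change was -1.06 ± 0.43 (unadjusted p = 0.031, adjusted p = 0.999, edgeR). Glycyl-tRNA synthetase, encoded by Gars (chromosome 6, 55038001 to 55079504), stood at 585, 488 and 645 CPM in WT and at 455, 451 and 369 CPM under Torin1. The gap between its groups was narrow, and the log2 change was -0.43 ± 0.24 (unadjusted p = 0.0979, edgeR).

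In all, 8 cytosolic genes had every Torin1 library below every WT library, against 10.7% of all genes tested. Beside Mars, Yars, Qars and Gars these were Farsa and Farsb, which encode the alpha and beta subunits of phenylalanyl-tRNA synthetase, Iars, for isoleucine, and Nars, for asparagine. Farsa stood at 95.01, 110 and 128 CPM in WT and 93.1, 83.7 and 72.7 CPM under Torin1, and Farsb at 149, 189 and 129 CPM against 122, 97.1 and 111 CPM. Treated libraries lay below WT for both subunits, narrowly for Farsa, with log2 changes of -0.41 ± 0.35 and -0.50 ± 0.47. The 2 cytosolic genes above 0 were Rars, for arginine (0.39 ± 0.47), and Dars, for aspartate (0.17 ± 0.38), both of the multisynthetase complex. For Rars only Torin1 replicate 2, at 690 CPM, lay above the WT range of 298 to 414 CPM, while the other two stood at 363 and 328 CPM.

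No mitochondrial gene had all Torin1 libraries below WT, and 1 had all of them above it, against 8.48% of all genes. That gene, Ears2, encodes the mitochondrial glutamyl-tRNA synthetase, and its RPF level was 3.35, 5.86 and 0.0718 CPM in WT and 8.05, 21.7 and 7.70 CPM under Torin1. The last WT value is 1 read, and the log2 change was 2.00 ± 1.29. Tars2, for mitochondrial threonyl-tRNA, stood at 12.6, 17.8 and 21.6 CPM in WT and 28.3, 49.1 and 19.8 CPM under Torin1. Torin1 replicate 3 fell inside the WT range, and the log2 change was 0.90 ± 0.63 (unadjusted p = 0.179, edgeR). Yars2, the mitochondrial counterpart of Yars, stood at 43.1, 56.7 and 80.8 CPM in WT and 30.8, 54.6 and 29.5 CPM under Torin1. Its groups overlapped, at a log2 change of -0.65 ± 0.54. Hars2, for histidine, lies head to head with Hars, which it overlaps by a few bases, and stood at 13.0, 15.7 and 4.81 CPM in WT and 20.6, 33.2 and 8.56 CPM under Torin1. Torin1 replicate 2 was the highest of the 3 treated libraries for each of Ears2, Tars2, Yars2 and Hars2, and its median over the 16 mitochondrial genes was 0.32 above the WT mean (log2).

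**Figure D2:**
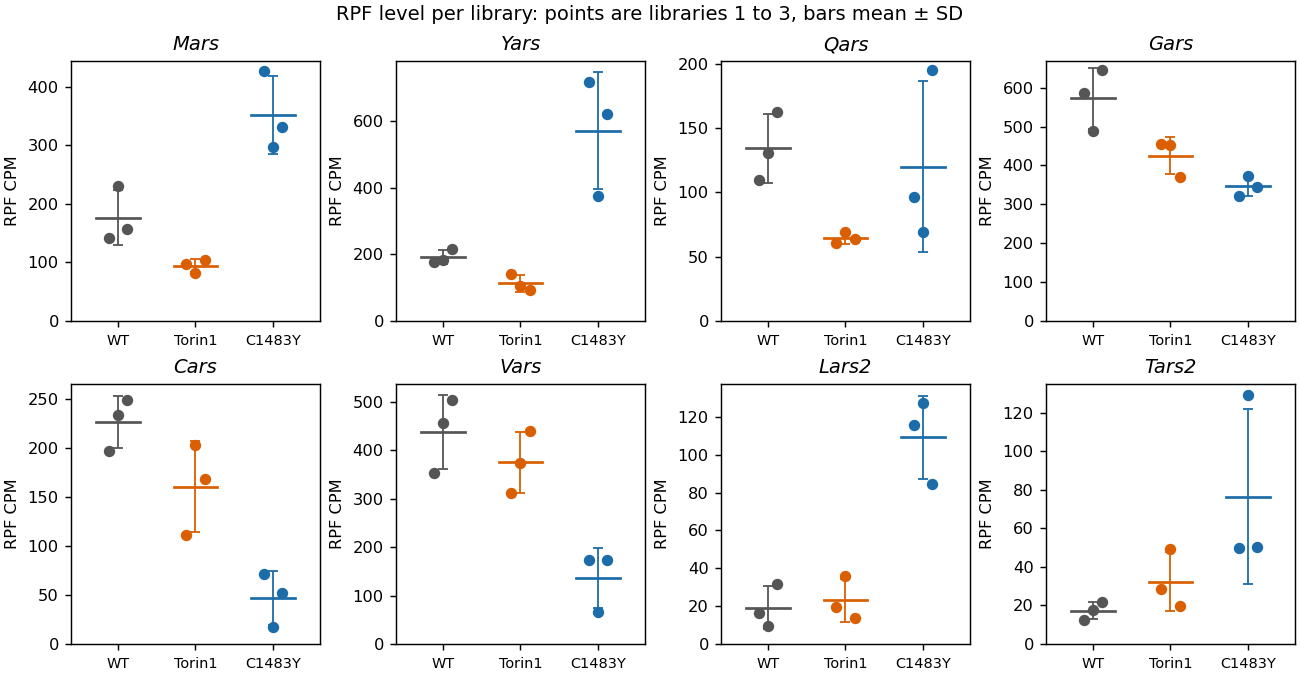
RPF level in CPM (linear axis from 0) of 8 synthetase genes in WT, Torin1 and C1483Y cells, with a point for each of 3 libraries and bars at mean ± SD. Mars and Yars lie below WT in the 3 Torin1 libraries and above WT in the 3 C1483Y libraries, while Cars and Vars are lowest and Lars2 highest in C1483Y.

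Taken library by library, the median cytosolic gene lay -0.32, -0.26 and -0.42 from the WT mean (log2) in Torin1 replicates 1, 2 and 3, while the WT libraries lay at -0.04, 0.14 and -0.08. The mitochondrial medians were -0.07, 0.32 and -0.26 under Torin1 and -0.10, 0.02 and 0.34 in WT. The Torin1 libraries were thus below each WT library for the cytosolic set. For the mitochondrial set, Torin1 replicates 1 and 2 lay within the WT range and replicate 3 lay below it. The ratio of cytosolic to mitochondrial reads was 11.4, 8.51 and 13.3 under Torin1, which overlaps the 10.5 to 14.9 seen in WT. The cytosolic median depended on the first replicates: without WT replicate 1 it was -0.23, and without Torin1 replicate 1 it was -0.24, with 14 of 20 genes below 0. The mitochondrial median turned to 0.19 without Torin1 replicate 1, and to 0.13 without WT replicate 3 or with limma-voom. No synthetase gene passed the threshold under any of the 12 alternatives run.

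Within the cytosolic set, the 10 class I enzymes (whose catalytic domain is a Rossmann fold) had a median of -0.36 and the 10 class II enzymes a median of -0.41, with 9 of 10 below 0 in each. Eprs, which joins a class I glutamyl and a class II prolyl enzyme in 1 chain, was counted in class I and stood at 238, 305 and 261 CPM in WT and 239, 251 and 263 CPM under Torin1, within the WT range. The 8 enzymes of the multisynthetase complex had a median of -0.20, with 6 below 0. Its 3 scaffold proteins were all below 0, at -0.49 ± 0.56 for Aimp1, -0.55 ± 0.39 for Aimp2 and -0.53 ± 1.28 for Eef1e1, and none passed the threshold.

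Other genes of the same processes gave 0 calls among tRNA charging and editing proteins (7 tested, median -0.11; smallest p for the alanyl editing protein gene Aarsd1, at -0.66 ± 1.18). Of 9 mitochondrial translation factors none passed, and Tufm, the mitochondrial elongation factor Tu, had the smallest p at -0.82 ± 0.36 (unadjusted p = 0.045, adjusted p = 1, edgeR). Amino acid response genes other than synthetases lay lower: 31 of 32 tested were below 0, with a median of -1.05, and 1 passed the threshold. That gene was Slc7a5, the leucine transporter, at 224, 286 and 295 CPM in WT and 105, 67.8 and 86.2 CPM under Torin1, without overlap (log2 change -1.64 ± 0.32, adjusted p = 0.0427, edgeR). Atf4 itself was at -1.22 ± 0.57 (unadjusted p = 0.054, edgeR). For scale, 58 of 74 ribosomal protein genes tested were called lower, with a median of -1.98, and 77 mitochondrial ribosomal protein genes had a median of -0.37 with 59 below 0 and 0 called.

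**Figure D3:**
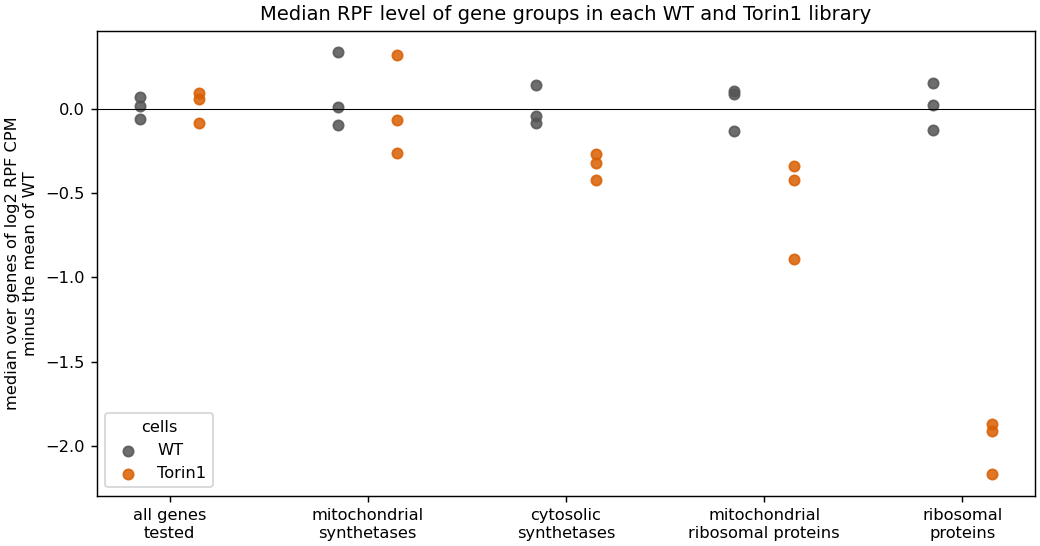
Median over the genes of a group of log2 RPF CPM minus the WT mean, for each of the 3 WT and 3 Torin1 libraries. The cytosolic synthetases sit at -0.26 to -0.42 under Torin1, below all WT libraries, the mitochondrial synthetases overlap WT, and the ribosomal proteins sit at -1.87 to -2.17.

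In mRNA the 2 sets differed first in whether they were seen at all. All 20 cytosolic genes had reads in each WT library, and 6 had over 100 reads in each of the 9 mRNA libraries. Of the 16 mitochondrial genes, 12 had 0 reads in at least 1 WT library (75%), 5 had 0 in all 3 (31.25%; Aars2, Fars2, Lars2, Rars2 and Sars2), and Aars2 had 0 in all 9. Where a mitochondrial gene had mRNA reads, they tended to sit in a single library: the highest library held a median of 59.9% of the CPM of 15 genes, and over 90% for 6, against a median of 29.6% for the cytosolic genes and over 90% for 0. This share was not computed for other genes of like RPF level, so it cannot be called particular to the mitochondrial synthetases. Pars2 had 6860 reads in WT replicate 3, 1 in Torin1 replicate 3, 4 in C1483Y replicate 3 and 0 in the other 6 libraries. Lars2 had 1077 reads in C1483Y replicate 3 and 4 in C1483Y replicate 1, and none elsewhere. RPF reads of both genes were present in all WT libraries, down to 1 read of Pars2 in replicate 3.

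Missing mRNA was common among genes with as few RPF reads. Of 7697 genes whose WT RPF level lay in the range of the mitochondrial synthetases (3.23 to 102 ppm), 58.9% had 0 mRNA reads in some WT library and 16.3% in all of them. The 16 mitochondrial synthetases, with a median RPF level of 18.7 ppm, stood above both shares, at 75% and 31.25%. That difference was not tested. Of 1271 genes in the range of the cytosolic synthetases (116 to 600 ppm), 7.40% had 0 in some WT library, and none of the 20 cytosolic genes did. These ranges are in reads and not per length.

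**Figure D4:**
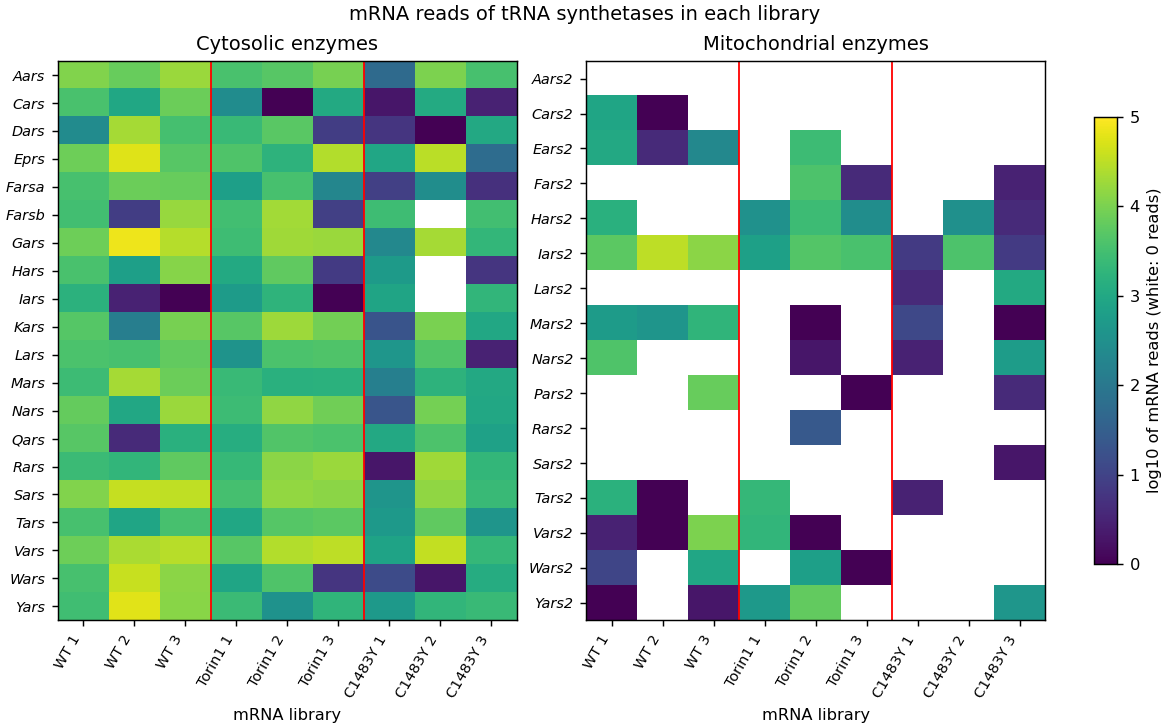
Reads of each synthetase gene in the 9 mRNA libraries, coloured on a log10 scale, with white for 0 reads and red lines between WT, Torin1 and C1483Y libraries. The cytosolic panel has 3 white cells, all in C1483Y replicate 2, and the mitochondrial panel is mostly white.

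All 20 cytosolic but only 8 of 16 mitochondrial genes passed the filter on low counts in mRNA, where Aars2, Cars2, Fars2, Lars2, Pars2, Rars2, Sars2 and Vars2 were not tested. Under Torin1, 0 of these 28 passed the threshold in edgeR, against 0.014% of 7121 genes. The DESeq2 test called Mars2 and Yars2, and 499 of the 7121 genes in all. Unadjusted p in edgeR was under 0.05 for 7.12% of genes, 2.27% lower and 4.84% higher, and for 0 of the 28. The cytosolic median was -0.11, with 12 of 20 below 0 and a range from -2.78 to 2.37, beside a median of 0.02 and 49.5% below 0 for all genes. It was -0.26 without the near-identical libraries and 0.12 without WT replicate 2, which turns its direction. Standard errors ran from 1.34 to 3.70, so a change in mRNA of the size seen in RPF was not detectable. The highest log2 change was that of Rars, at 70.2, 31.3 and 91.0 CPM in WT and 158, 249 and 585 CPM under Torin1. The groups did not overlap, at a log2 change of 2.37 ± 1.95 (adjusted p = 1, edgeR). The lowest was that of Wars, tryptophanyl-tRNA synthetase, at 98.4, 628 and 206 CPM in WT and 59.6, 75.8 and 0.197 CPM under Torin1. This too was without overlap, at -2.78 ± 2.37, and the last value comes from the library that matched C1483Y replicate 2, where Wars stood at 0.0426 CPM. Groups were apart in the lower direction for 4.42% of all genes and in the higher direction for 5.39%, and for 2 cytosolic genes in each direction.

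For the mitochondrial genes the mRNA comparison under Torin1 came down to single libraries. The 8 genes tested had a median of 0.20, with 4 above and 4 below 0. With 1 library left out it ran from -1.77 (without Torin1 replicate 2) to 1.15 (without WT replicate 1), and it was above 0 in only 6 of 13 alternatives, so it has no stable direction. Reads of Yars2 numbered 1, 0 and 2 in the WT libraries and 482, 6424 and 0 with Torin1. Nars2, for mitochondrial asparaginyl-tRNA, had 4221, 0 and 0 reads in WT and 0, 2 and 0 under Torin1. Mars2 had 558, 402 and 1828 reads in WT and 0, 1 and 0 under Torin1. The WT value of Nars2 is a single library, while Mars2 had reads in every WT library and at most 1 in a Torin1 library. With groups this close to 0, fitted changes depend on the prior count and are not given as folds. The median was the same when groups with at most 3 reads were set to a floor of 3 reads. It could not have moved, since the genes concerned, Yars2, Nars2 and Mars2, stayed at the ends of the range. Iars2, for isoleucine, was the only mitochondrial gene with reads in each of the 9 mRNA libraries, at 155, 517 and 207 CPM in WT and 47.8, 84.6 and 122 CPM under Torin1. Its groups did not overlap, and the log2 change was -1.79 ± 2.37 (adjusted p = 1, edgeR).

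Translational efficiency (TE), the RPF level relative to the mRNA level, was tested as an interaction over all 18 libraries. Of 28 synthetase genes tested, 0 passed the threshold under Torin1 in edgeR, against 0.0283% of 7072 genes. The DESeq2 test called Mars2 and Yars2, and 545 of the 7072 genes in all. Unadjusted p in edgeR was under 0.05 for 11.1% of genes, 7.06% lower and 4.04% higher, and for 3 of the 28. The cytosolic median was -0.01 with 10 of 20 below 0, beside 52.8% of all genes, and the highest and lowest values were those of Wars (2.38 ± 2.51) and Kars (-2.24 ± 1.66). They have the opposite sign to their mRNA values of -2.78 ± 2.37 and 1.83 ± 2.08, which enter the same ratio. The 3 mitochondrial genes with an unadjusted p under 0.05 were Mars2 and Nars2, above 0, and Yars2, below 0 (adjusted p from 0.24 to 0.359, edgeR), the genes whose mRNA reads were near 0 in 1 group. The mitochondrial median of 1.06 over 8 genes was -0.42 without WT replicate 1. The TE of ribosomal protein genes, for scale, had a median of -1.92 over 74 genes.

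In the RPF libraries labelled C1483Y, 9 of 36 synthetase genes passed the threshold against WT (25%), beside 18.6% of all 11085 genes tested (10.7% lower and 7.91% higher). Cytosolic enzymes moved both ways: 5 were lower, Cars, Rars, Vars, Hars and Aars, and 2 were higher, Yars and Mars. The 2 mitochondrial genes that passed, Lars2 and Tars2, were both higher. The cytosolic median was -0.33 and the mitochondrial median -0.17, beside -0.27 for all genes, with 12 of 20, 10 of 16 and 55.6% below 0. With 1 library left out the cytosolic median ran from -0.54 to -0.29 and the mitochondrial one from -0.44 (without WT replicate 1) to 0.061 (without WT replicate 3), which turns its direction. Fibroblast markers summed to less and neuron and glia markers to more in the same libraries, as given above, and the part of this in the synthetase values was not tested.

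**Figure D5:**
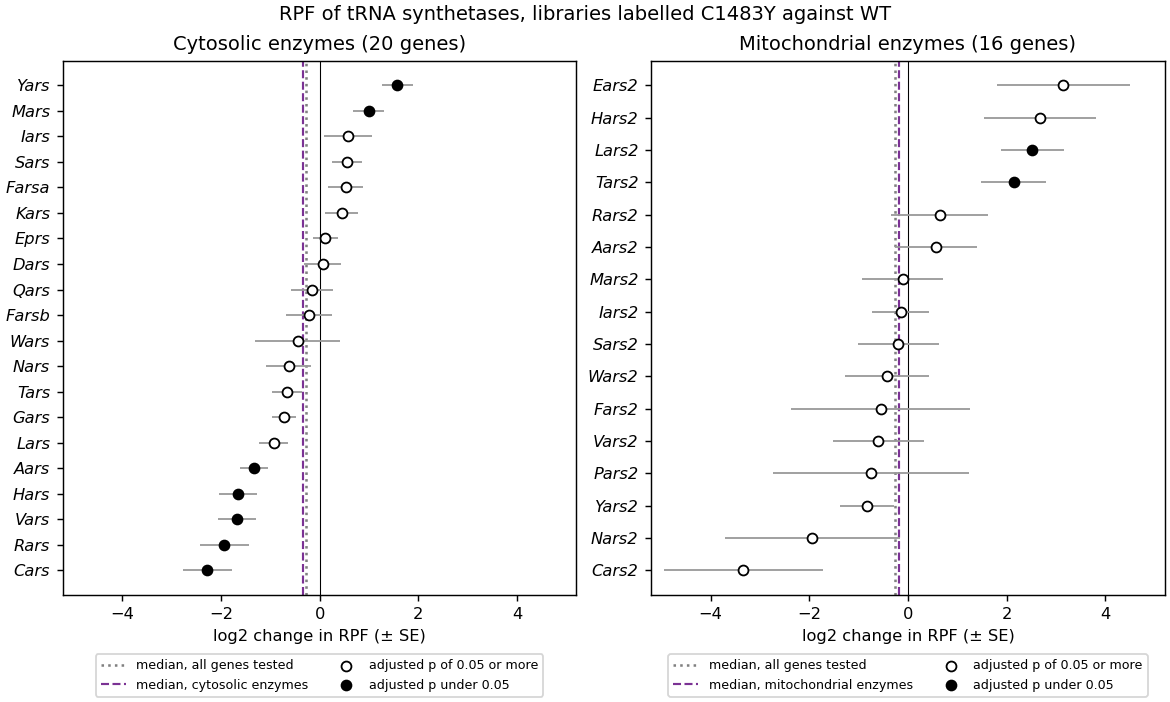
Log2 change in RPF of the libraries labelled C1483Y against WT for the 20 cytosolic and 16 mitochondrial synthetase genes (points, with SE bars), n = 3 libraries a group, with filled points where the adjusted p is under 0.05 and lines at the medians. Cytosolic genes run from -2.27 for Cars to 1.57 for Yars, and Lars2 and Tars2 are the filled mitochondrial points.

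The lower enzymes of the cytosol charge amino acids of unlike chemistry. Cysteinyl-tRNA synthetase, encoded by Cars (chromosome 7, 143557230 to 143600090), stood at 197, 233 and 249 CPM in WT and 71.3, 17.5 and 51.8 CPM in C1483Y. The groups were far apart, at a log2 change of -2.27 ± 0.49 (adjusted p = 0.0087, edgeR). Arginyl-tRNA synthetase, encoded by Rars, stood at 340, 414 and 298 CPM in WT and 140, 32.5 and 103 CPM in C1483Y, at -1.93 ± 0.49 (adjusted p = 0.0188, edgeR). For both genes C1483Y replicate 2 was the lowest library. Valyl-tRNA synthetase, encoded by Vars, stood at 354, 457 and 503 CPM in WT and 173, 65.4 and 173 CPM in C1483Y, at -1.68 ± 0.38 (adjusted p = 0.0104, edgeR). Histidyl-tRNA synthetase, encoded by Hars, stood at 187, 167 and 117 CPM in WT and 66.5, 43.6 and 40.4 CPM in C1483Y, at -1.65 ± 0.38 (adjusted p = 0.0121, edgeR). Alanyl-tRNA synthetase, encoded by Aars, stood at 402, 453 and 304 CPM in WT and 140, 135 and 189 CPM in C1483Y, at -1.32 ± 0.29 (adjusted p = 0.00869, edgeR). All 5 genes had each C1483Y library below each WT library, as had 27.4% of all genes. Lars and Gars just missed the threshold, at -0.93 ± 0.30 and -0.73 ± 0.24 (adjusted p = 0.0529 and 0.0561, edgeR).

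Tyrosyl-tRNA synthetase rose. Yars stood at 716, 375 and 621 CPM in C1483Y against 177, 183 and 215 CPM in WT, a log2 change of 1.57 ± 0.32 (adjusted p = 0.00598, edgeR). Every C1483Y library was above every WT library by a wide margin. Mars, at 426, 297 and 332 CPM in C1483Y against 142, 230 and 157 CPM in WT, was also higher without overlap (1.00 ± 0.31, adjusted p = 0.0445, edgeR). Of all genes, 16.5% had C1483Y libraries wholly above WT. Both genes were thus on opposite sides of WT in C1483Y and under Torin1. The direct contrast of C1483Y against Torin1, chosen after these values were seen, gave 2.34 ± 0.33 for Yars and 1.90 ± 0.32 for Mars (adjusted p = 0.00059 and 0.00171, edgeR), with 21.5% of all genes called. Among the other members that contrast called Cars, Hars, Rars and Vars lower and Lars2 higher.

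Among the mitochondrial enzymes, Lars2, for leucine (chromosome 9, 123366927 to 123462675), stood at 116, 127 and 84.8 CPM in C1483Y and 16.4, 9.23 and 31.6 CPM in WT. The lowest C1483Y library was well above the highest WT library, at a log2 change of 2.52 ± 0.63 (adjusted p = 0.0177, edgeR). Tars2 (chromosome 3, 95739974 to 95756365) stood at 50.02, 129 and 50.5 CPM in C1483Y and 12.6, 17.8 and 21.6 CPM in WT, at 2.14 ± 0.65 (adjusted p = 0.0417, edgeR). Ears2 was again above WT in all 3 libraries, at 19.6, 23.0 and 40.4 CPM, but did not pass (3.15 ± 1.35, adjusted p = 0.133, edgeR). Cars2, for cysteine, stood at 20.1, 14.8 and 20.2 CPM in WT and 5.25, 0 and 0.224 CPM in C1483Y, below WT throughout and also short of the threshold (-3.33 ± 1.61, adjusted p = 0.18, edgeR). In C1483Y replicate 2, a library with 7362 genes detected, 4 mitochondrial genes had 0 RPF reads: Cars2, Fars2, Nars2 and Pars2. That library's median over all genes was -1.75 against the WT mean, while the other two lay at -0.06 and -0.26. Hars2 was at 191 CPM there and at 11.4 and 11.9 CPM in the other two C1483Y libraries.

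The calls differed in how far they rested on single libraries. Those of Yars, Aars, Cars and Vars held in all 12 alternatives run. That of Rars was lost without WT replicate 2 (adjusted p = 0.0562), and that of Hars without WT replicate 1 (0.0563) or 2 (0.0541), where its adjusted p over all alternatives ran from 0.000265 to 0.0811 and that of Rars from 0.000747 to 0.0562 (edgeR, except 0.0811 from limma-voom). Lars2 was lost without WT replicate 1 (0.0904) or 2 (0.0905) and with a replicate block (0.0501), in a range from 0.000249 to 0.0905. The block also ended the calls of Mars (0.0793) and Tars2 (0.0820). Mars and Tars2 each held in 4 of 12 alternatives, with adjusted p from 0.00608 to 0.25 and from 0.00264 to 0.177. Mars was lost without WT replicate 1 (0.25), 2 (0.0652) or 3 (0.154) and without C1483Y replicate 1 (0.174) or 3 (0.0719), and Tars2 without WT replicate 1 (0.177), 2 (0.142) or 3 (0.0955) and without C1483Y replicate 2 (0.0658). The 9 synthetase genes called became 5 without WT replicate 1 and 4 without WT replicate 2.

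Calls among related genes in the C1483Y libraries stand beside the 18.6% called over all genes, and nothing particular to the lists is read from them. Of 9 mitochondrial translation factors, 2 were called: Tufm was higher (1.59 ± 0.37, adjusted p = 0.012, edgeR) and the initiation factor gene Mtif3 lower, at 15.6, 1.54 and 31.9 CPM in WT and 0.457, 0 and 0 CPM in C1483Y (adjusted p = 0.0403, edgeR), too near 0 for a fold. Of 32 amino acid response genes tested, 4 were called: 2 lower, Slc38a2 and Psat1, and 2 higher, Slc7a1 and Stc2, with a median of -0.15. The scaffold proteins and the tRNA charging and editing proteins had 0 called, with the smallest p for Aimp1 (-1.32 ± 0.57) and the D-aminoacyl-tRNA deacylase gene Dtd2 (-4.25 ± 1.69). Dtd2 stood at 16.8, 23.9 and 15.5 CPM in WT and 2.97, 0 and 0 CPM in C1483Y, so its C1483Y reads came from a single library.

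In the mRNA libraries labelled C1483Y, 0 of 28 synthetase genes tested passed against WT in edgeR, beside 0.323% of 7121 genes. The DESeq2 test called Ears2 and Yars2, and 502 of the 7121 genes in all. Unadjusted p in edgeR was under 0.05 for 8.72% of genes, 3.1% lower and 5.62% higher, and for 0 of the 28. The cytosolic median was -0.32, with 12 of 20 below 0, beside -0.50 and 56.8% for all genes. It was -0.47 without C1483Y replicate 2, the library with 55341 Col1a1 reads, again with 0 called. Under DESeq2 size factors it was 2.29, with 2 of 20 below 0, as the median of all genes moved to 0.99, so no direction of the set can be read from these libraries. The highest and lowest cytosolic values were those of Iars (3.83 ± 3.13) and Farsa (-5.04 ± 3.90). Iars had 1633, 3 and 1 reads in WT and 846, 0 and 1984 in C1483Y. Farsa had 3446, 7528 and 6789 reads in WT and 9, 277 and 5 in C1483Y, without overlap, as had 9.49% of all genes in that direction, while its RPF value was 0.53 ± 0.35. The mitochondrial median over 8 genes was -3.48, and it was 0.51 without WT replicate 1 and -5.13 without C1483Y replicate 2, or without both near-identical libraries. Yars2 had 0, 0 and 432 reads in C1483Y, and Iars2 7, 3985 and 7 reads against 5580, 31612 and 13731 in WT. The 3985 reads of Iars2 are those of the library that matched Torin1 replicate 3, where Iars2 had 3717 reads.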

How the data were processed

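RNase I left the RPF and heat broke the mRNA before small-RNA libraries were built, per the labels' protocols. Each deposited file holds whole-number counts of reads per gene made by the authors and left unscaled. Bowtie 1.1.2, TopHat2 2.1.1, HTSeq and build mm10 are named in the submitters' processing notes, without order, settings or use of strand. The 5 summary lines and 27 lines with dates for symbols (0.089% to 0.264% of gene counts) were left out. A count of 0 allows up to 3 reads, which is 0.0701 to 0.641 ppm across RPF and 0.0318 to 0.679 ppm across mRNA libraries, for counting error only.

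The main test was edgeR 4.0.16 (quasi-likelihood, TMM, filterByExpr; R 4.3.3) over the 9 libraries of an assay, or 18 for TE. Its p-values were adjusted across every gene tested (Benjamini-Hochberg, threshold 0.05). The SE given with edgeR values is the absolute log2 change divided by the square root of the test's F statistic. It is thus approximate and was not returned by the fit. The scripts were tested on simulated data with less spread between replicates than these libraries had. That test does not tell how small a change could be detected here. CPM follow TMM scaling, and values against the WT mean per library use a prior count of 2. DESeq2 1.42.0 (test, size factors), limma-voom 3.58.1, no filter, 2 groups alone, a replicate block, each library left out and the near-identical mRNA libraries left out were alternatives. Values per library are given for called genes, and else for the 4 cytosolic and 3 mitochondrial genes with the smallest p (RPF, Torin1) or the largest rise and fall, at a mean of at least 10 CPM. Farsa, Farsb, Eprs and Ears2 (RPF, Torin1), Pars2, Lars2, Mars2 and Iars2 (mRNA), Hars2 (C1483Y) and Atf4 were shown beyond this, after their values were seen. The members and lists were chosen with earlier results of these data known. All 36 symbols matched RefSeq, Mars as a synonym. Levels per length were not computed. A further list, of other mitochondrial charging proteins, is not reported here.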

Additional observations from a re-analysis of the deposited data

Results flagged for a closer look

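Mars and Yars were flagged because their RPF lay on opposite sides of WT in the 2 conditions. All 3 Torin1 libraries were below all WT libraries and all 3 libraries labelled C1483Y were above them. Of all genes tested, 10.7% did the first and 16.5% the second, and the share that did both was not computed. Neither gene passed the threshold under Torin1 (adjusted p = 0.669 for Mars and 0.999 for Yars, edgeR). The C1483Y call of Mars held in 4 of 12 alternatives. The difference between C1483Y and Torin1 was 1.90 ± 0.32 for Mars and 2.34 ± 0.33 for Yars on the log2 scale (adjusted p = 0.00171 and 0.00059, edgeR), higher in 3 of 3 C1483Y libraries. Both comparisons share the WT libraries, the contrast was chosen after the values were seen, and the C1483Y libraries also differ from WT in cell type markers, whose part in these values was not tested.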

How the results depend on the processing

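For RPF, depth was lowest in the C1483Y libraries, and in mRNA the spread between replicates limits every value. Leaving out 1 library at a time, the cytosolic RPF median under Torin1 ran from -0.40 to -0.23 and the mitochondrial one from -0.22 to 0.19, and 4 to 12 synthetase genes were called in C1483Y. The cytosolic RPF median in C1483Y was -0.61 with limma-voom. For mRNA under Torin1, the cytosolic median was -0.45 with limma-voom, -0.28 with no filter, -0.25 with 2 groups alone, -0.26 without the near-identical libraries and -0.26 to 0.12 with 1 library left out. For TE it was 0.19 with no filter and -0.44 to 0.081 with 1 library left out, and the mitochondrial TE median then ran from -0.42 to 1.69. For mRNA in C1483Y, the cytosolic median was 2.29 with DESeq2 size factors or test, and the mitochondrial median was -2.16 with either, -1.73 with limma-voom, -2.89 with 2 groups alone, -5.13 without the near-identical libraries and -6.58 to 0.51 with 1 library left out. The DESeq2 test called 2 synthetase genes in each of the mRNA and TE comparisons, beside 499 to 545 of all genes tested. Nars2 under Torin1 changed sign without WT replicate 1: with 1 library left out its fitted log2 value, which depends on the prior count with 2 reads in the Torin1 mRNA libraries and is no bound, ran from -13.33 to 2.29 in mRNA and from -2.22 to 12.67 in TE. Yars2 in mRNA changed sign without C1483Y replicate 3 and ran, with the same limit, from -2.85 to 10.80. Leaving out those libraries left Nars2 with 0 WT reads and Yars2 with 0 C1483Y reads in mRNA. The cause of the other moves was not tested. In the other 158 of 192 alternatives, counts stayed within 1.5 times and medians moved by less than the spread between replicates, but medians near 0 still changed sign: the cytosolic TE median kept its sign in 6 of 14, the mitochondrial mRNA median under Torin1 in 6 of 13 and the mitochondrial RPF medians in 9 of 12 (Torin1) and 11 of 12 (C1483Y). Single genes kept direction and side of the threshold in 338 of 371.

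Counts over all genes for RPF under Torin1 were 83, against 148 with DESeq2, 206 with limma-voom, 138 with 2 groups alone and 33 to 62 with 1 library left out. For RPF in C1483Y the 2060 genes called became 3340 with the DESeq2 test, and in mRNA and TE that test called 499 (mRNA, Torin1), 545 (TE) and 502 (mRNA, C1483Y) genes against 1, 2 and 23. Without the near-identical mRNA libraries, edgeR called 0 of 8064 (mRNA, Torin1), 45 of 7944 (TE) and 145 of 8064 (mRNA, C1483Y) genes. In each of these 0 synthetase genes were called.

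Libraries with the same number mostly did not deviate together (correlations of 0.0140 to 0.205 in RPF under Torin1, -0.0377 to 0.0350 in mRNA, 0.0184 to 0.0977 and 0.0139 to 0.113 in C1483Y). The highest, 0.205, was that of replicate 1 in RPF, while Torin1 and WT libraries of unlike number ran from -0.144 to 0.0783. WT and Torin1 replicate 1 were also the closest pair of RPF libraries (correlation of the log2 of ppm plus 1 of 0.975, against 0.962 for the next pair). Whether they share more than a number was not tested. With a replicate block, 85 genes were called in RPF under Torin1 and 1595 in C1483Y, with 6 synthetase genes in the latter. The block moved the mRNA medians under Torin1 to 0.29 (cytosolic) and -2.98 (mitochondrial), and the mitochondrial mRNA median in C1483Y to -4.37. Levels per length were not run, since no coding lengths were used.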
